A study of Mus musculus with 2 samples.

Results

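Hepcidin is a small peptide hormone that hepatocytes secrete, and it sets how much iron enters the plasma by binding the iron exporter ferroportin and sending it for degradation. Its gene is switched on mainly through bone morphogenetic protein (BMP) signals that run through SMAD proteins, with hemojuvelin as co-receptor and HFE and transferrin receptor 2 reporting on transferrin-bound iron, and through interleukin 6 and STAT3 during inflammation. The protease encoded by Tmprss6 holds the pathway down by cleaving hemojuvelin. The 10 genes described here were chosen by name for these roles, with earlier results of these data known. The genes are Hamp and Hamp2 (hepcidin and its duplicate), Bmp6, Hfe2 (now Hjv), Hfe and Tfr2 (inducers and sensors), Tmprss6 (repressor), Tfrc (iron uptake), Fth1 (iron storage) and Slc40a1 (ferroportin, iron export). They are 10 of 26440 genes in the tables, and each stands on 1 RefSeq accession.

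RNA came from livers of BALB/c mice collected on day 11 after birth, with 1 library from wild-type mice and 1 from mice labelled SRSF2-/-, described by the submitters as a deletion specific to the liver. SRSF2 is a serine/arginine-rich protein that takes part in precursor messenger RNA splicing, and the comparison asked how its loss changes the transcripts of young liver. The sources used here do not give the promoter that drove the deletion, the number of animals per library or their iron status. With 1 library per genotype there was no test, so every value below describes these libraries.

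The tables held 22407743 wild-type and 22111605 knockout reads. Srsf2 itself was lower, at 27.9 FPKM (wild type) against 11.8 FPKM (knockout), where FPKM counts fragments scaled by transcript length and library size, so that genes can be compared. All 10 hepatocyte markers listed, Alb among them, were present in both libraries, with a summed level of 80675 and 40766 FPKM. The libraries also differed in Xist, which coats the silenced X of female cells, at 27.4 and 0.0138 FPKM, so genotype and the sex of the animals cannot be told apart.

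Ratios were shifted as a whole. Over the 12477 genes with at least 1 FPKM in either library, the median of log2((knockout FPKM + 1) / (wild-type FPKM + 1)) was 0.55, and 84.5% of them were higher in the knockout library. Sizes are therefore given as deposited and also relative to that median. Each fold is followed by its exact 95% interval (Clopper-Pearson, from the reads), which covers counting error alone.

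The duplicate hepcidin genes lie next to each other on chromosome 7 of the reference, between Mag and Usf2. Their transcripts were identical at 93.0% of 417 aligned bases, with a longest shared run of 87 bases. A stretch of 120 bases just before each start is shown because the promoter of Hamp is where the BMP and STAT3 signals meet. Capitals mark matches to the core of the BMP response element (GGCGCC) and to the STAT site (TTCNNNGAA), searched on both strands. The sequences are RefSeq's on build GRCm38.p6, minus strand, at chr7:30944033-30944152 for Hamp and chr7:30924182-30924301 for Hamp2.
Hamp: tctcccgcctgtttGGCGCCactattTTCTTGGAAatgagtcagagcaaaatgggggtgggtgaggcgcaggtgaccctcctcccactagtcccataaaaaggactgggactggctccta
Hamp2: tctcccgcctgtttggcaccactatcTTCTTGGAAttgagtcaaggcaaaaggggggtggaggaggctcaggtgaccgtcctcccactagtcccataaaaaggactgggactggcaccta

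The windows were identical at 109 of 120 bases. Counted from 1 at the 5′ end of the printed windows, with the base of Hamp first, one of the 11 differences is G18A, which falls inside the BMP element, so Hamp holds GGCGCC at bases 15 to 20 and Hamp2 holds no match. The same STAT site, TTCTTGGAA, stands at bases 27 to 35 of both. Of 32851 RefSeq promoter windows of this length, 6.05% held the BMP element, 3.15% the STAT site and 18 windows (0.0548%) held both. An E-box (CACGTG), found in 3.66% of windows, was in neither gene's window. A match is a description of letters, and binding was not measured.

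**Figure D1:**
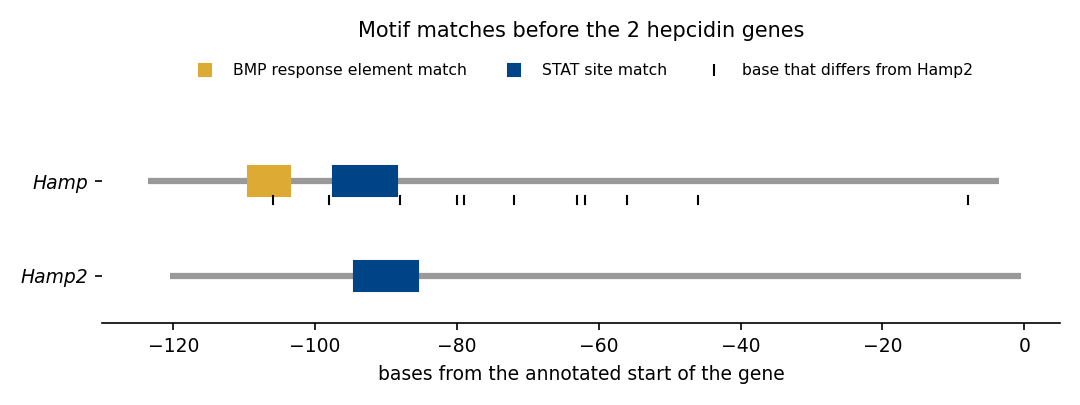
Motif matches in the 120 bases shown for Hamp and Hamp2, by distance in bases from each gene's annotated start. Both genes have the STAT site match (blue); the BMP response element match (yellow) is before Hamp, and black ticks are the 11 bases at which Hamp differs from the aligned base of Hamp2.

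Iron also acts on messenger RNA through iron-responsive elements, short stem-loops bound by iron regulatory proteins when iron is scarce. An element in the 5′ untranslated region blocks translation, and elements in the 3′ untranslated region protect the transcript from decay. A search for a C, a stem of 5 paired bases (G-U pairs allowed) and a loop of the form CAGNGN found 1 element in Fth1, 1 in Slc40a1 and 5 in Tfrc, and none in the other 7 genes. Of 58797 protein-coding transcripts in GENCODE M21, 3.25% held at least 1 such element, and the single transcript with at least 5 was that of Tfrc. A few are printed with the loop in capitals, since they mark the genes of the 10 that matched the search.
Fth1, 5′ untranslated region: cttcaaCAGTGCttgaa
Slc40a1, 5′ untranslated region: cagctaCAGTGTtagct
Tfrc, 3′ untranslated region, element 2: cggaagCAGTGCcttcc
Tfrc, 3′ untranslated region, element 5: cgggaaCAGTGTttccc

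Hepcidin transcript was nearly absent from the wild-type library and abundant in the knockout library. Hamp had 7 wild-type reads (0.668 FPKM) and 2011 knockout reads (194 FPKM), 291-fold higher (141 to 724). In level it moved from rank 11673 to rank 308 of all genes. Its log2 ratio was 6.87 (6.32 after subtracting the median over all genes), the second highest of the 12477 genes tested. The wild-type value rests on 7 reads, which is why the interval is wide.

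Hamp2 had 0 wild-type reads and 42 knockout reads (3.71 FPKM). Against a floor of 3 reads, which is 0.262 FPKM in the wild-type library, it was 14.2-fold higher. The lower limit of the exact interval, from the reads themselves, was 11.0. The log2 ratio of Hamp2 was 2.24, or 1.68 relative to all genes. Within the knockout library Hamp stood 52.4-fold above Hamp2 (38.6 to 72.9). Reads shared by these near-identical transcripts may have been divided or lost, and 89 of the 437 bases of Hamp2 also lie under exons of a noncoding gene on the opposite strand, so its level is uncertain.

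**Figure D2:**
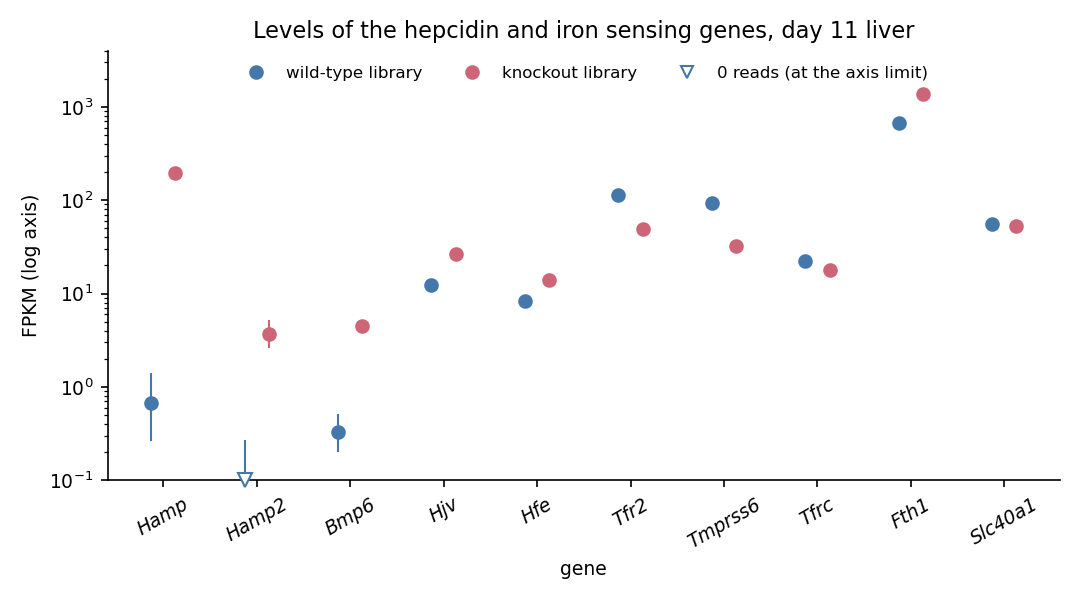
FPKM of the 10 genes (log axis) in the wild-type (blue) and knockout (red) library, with 95% Poisson counting intervals where wider than the point; the open triangle marks 0 reads, with a line up to the floor of 3 reads. Hamp, at 0.668 and 194 FPKM, spans the widest gap, and Slc40a1, at 56.0 and 53.1 FPKM, the narrowest.

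The 3 named genes closest to Hamp in both levels, by distance in log2(FPKM + 1) over the 2 libraries, were Sprr1a (distance 0.17, at 0.811 and 178 FPKM), Ctrb1 (0.58) and Clps (1.03). Sprr1a encodes an envelope protein of squamous epithelium, and Ctrb1 and Clps encode a digestive protease precursor and a lipase cofactor of the pancreas. Pancreatic tissue is also known to express Hamp2. All 10 exocrine pancreas markers had reads in the knockout library, with a summed level of 780 FPKM against 9.20 FPKM in the wild-type library, where Cpb1, Pnlip and Cel had 0 reads. Their part in the hepcidin values was not tested, and in bulk liver fewer cells of a type and less RNA per cell cannot be told apart.

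As deposited, 5 of the 10 genes were at least 2-fold higher in the knockout library (Hamp, Hamp2, Bmp6, Hjv and Fth1), a size that 19.2% of all tested genes reached. At least 2-fold lower were 2 of the 10 (Tfr2 and Tmprss6), against 2.95% of all tested genes. Relative to the median of all genes, 3 remained higher (Hamp, Hamp2 and Bmp6, against 5.67% of all genes) and the same 2 lower (6.66% of all genes). These shares over all tested genes are also the background for the counts of each list below. All 10 passed the filter, but Hamp, Hamp2 and Bmp6 passed it only through the knockout library and so had to be higher there. The median log2 ratio of the 10 was 0.86 (0.31 after centring on all genes). Because the 10 genes were chosen with earlier results of these data known, these counts and this median describe the list and are not independent of that choice.

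**Figure D3:**
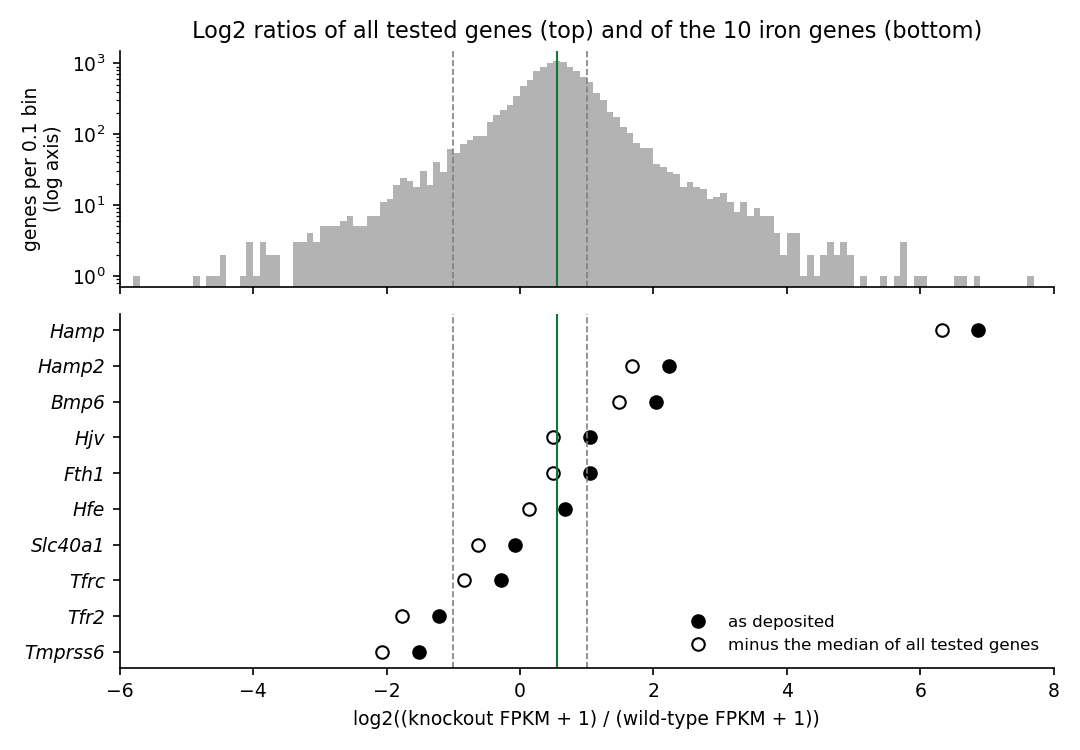
Top, number of genes (log axis) per log2 ratio bin over the 12477 tested genes; bottom, the 10 iron genes as deposited (filled) and after subtracting the median of all tested genes (open). The green line is that median of 0.55 and the dashed lines mark 2-fold; Hamp lies at the far right of the distribution, and Tfr2 and Tmprss6 lie left of the lower dashed line on both scales.

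Bmp6 encodes the BMP ligand that rises with liver iron and is the main iron-dependent inducer of hepcidin, made largely by sinusoidal endothelial cells. It had 21 wild-type reads (0.328 FPKM) and 283 knockout reads (4.48 FPKM), 13.6-fold higher (8.75 to 22.4). Its log2 ratio was 2.04, or 1.49 relative to all genes. Bmp2, the other endothelial ligand of this pathway, chosen after its values were seen, stood at 3.69 and 3.86 FPKM. The level of Bmp6 was thus 0.0890 of that of Bmp2 in the wild-type (0.0544 to 0.138) and 1.16 of it in the knockout library (0.989 to 1.36).

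Markers of sinusoidal endothelium differed less than Bmp6. None of the 10 reached 2-fold in either direction, and their summed level was 172 and 213 FPKM. On the reference, 224 of the 3593 bases of the Bmp6 transcript lie under exons of Txndc5 on the opposite strand. Txndc5 stood at 89.9 and 91.7 FPKM, and the sources used here do not say whether strand was used in counting. The part of endothelial cells or of Txndc5 reads in the Bmp6 value was not tested.

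Hjv encodes hemojuvelin, the BMP co-receptor without which hepcidin stays low. It had 974 reads (12.4 FPKM) and 2076 reads (26.7 FPKM), 2.16-fold higher in the knockout library (1.998 to 2.33), but 0.50 on the log2 scale relative to all genes and so under 2-fold there. Skeletal muscle expresses Hjv strongly. Skeletal muscle markers summed to 0.197 FPKM in the wild-type library, with Acta1, Myh4, Myh8, Actn3 and Pvalb at 0 reads, and to 71.7 FPKM in the knockout library, with all 10 detected. Their part in the Hjv value was not tested.

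Hfe encodes the class I-like membrane protein whose loss causes iron overload. It had 661 reads (8.34 FPKM) and 1095 reads (13.98 FPKM), 1.68-fold higher in the knockout library (1.52 to 1.85). Its log2 ratio of 0.68 lay close to the median over all genes, with a difference of 0.13.

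Tfr2, the hepatocyte sensor of diferric transferrin, went the other way. It had 9484 wild-type reads (114 FPKM) and 4009 knockout reads (48.6 FPKM), 2.34-fold lower (2.25 to 2.43), and moved from rank 413 to rank 1147 in level. Its log2 ratio was -1.21, or -1.76 relative to all genes. The level of Tfr2 relative to Hfe, with which it has been found in a complex, was 13.6 (12.6 to 14.8) in the wild-type and 3.47 (3.25 to 3.72) in the knockout library.

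Tmprss6, the repressor, was the lowest in ratio of the 10. It had 7914 wild-type reads (93.5 FPKM) and 2692 knockout reads (32.2 FPKM), 2.90-fold lower (2.78 to 3.04), with a log2 ratio of -1.51 (-2.06 after centring on all genes). Of all tested genes, 1.499% had a lower ratio. Set against its substrate, Tmprss6 stood 7.55-fold above Hjv in the wild-type library (7.06 to 8.08) and 1.20-fold above it in the knockout library (1.14 to 1.28). Skeletal muscle, which expresses Hjv, differed in its markers between the libraries, and its part in these ratios was not tested.

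Tfr2 and Tmprss6 are both expressed mainly by hepatocytes, and hepatocyte markers were lower too. Of the 10 markers, 8 were lower in the knockout library, 3 of them at least 2-fold, and their median log2 ratio was -0.79. After centring on all genes 8 were at least 2-fold lower, with a median of -1.34. Relative to that median Tfr2 stood at -0.42 and Tmprss6 at -0.72, below it by less than 2-fold. On the same scale Hamp stood at 7.66. Tfr2 and Tmprss6 lay within the range of the markers, which was wide, with log2 ratios as deposited from -1.75 to 1.65. The part of hepatocytes in the Tfr2 and Tmprss6 values was not tested.

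Tfrc encodes transferrin receptor 1, the general route of iron uptake, and it is most abundant in red cell precursors. It had 2962 reads (22.2 FPKM) and 2369 reads (17.9 FPKM), 1.24-fold lower in the knockout library (1.17 to 1.30). The log2 ratio was -0.29 as deposited and -0.84 relative to all genes, but 0.50 relative to the hepatocyte markers, so its direction depends on the scaling. Erythroid markers summed to 778 and 445 FPKM, carried by the alpha globin genes Hba-a1 (399 and 224 FPKM) and Hba-a2 (361 and 206 FPKM). The beta globin genes Hbb-b1 and Hbb-b2 had 0 reads in both libraries, so the sum lacks them, and the reason was not tested. None of the 6 erythroid markers that passed the filter reached 2-fold as deposited, 3 were at least 2-fold lower relative to all genes, and their part in the Tfrc value was not tested.

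The balance of the receptors shifted with these values. Tfr2 stood 5.12-fold above Tfrc in the wild-type library (4.91 to 5.34) and 2.71-fold above it in the knockout library (2.57 to 2.85). Both libraries therefore held more Tfr2 than Tfrc transcript per length.

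Fth1, the heavy chain of the iron store ferritin, was the most abundant of the 10 in both libraries. It had 26665 reads (665 FPKM) and 54481 reads (1375 FPKM), 2.07-fold higher in the knockout library (2.04 to 2.10), and ranked 67 and 30 in level among all genes. Relative to all genes its log2 ratio was 0.49, under 2-fold. The light chain gene Ftl1 was 2.21-fold higher (2.17 to 2.25), at 679 and 1503 FPKM, so the heavy to light ratio was 0.980 (0.961 to 0.998) and 0.915 (0.903 to 0.927). Ferritin genes have processed copies elsewhere in the genome, and how reads shared with them were counted is not stated.

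Slc40a1, which encodes ferroportin, had nearly the same level in both libraries. It had 5017 reads (56.0 FPKM) and 4709 reads (53.1 FPKM), a knockout to wild-type ratio of 0.950 (0.913 to 0.989). Its log2 ratio was -0.07 as deposited, -0.63 relative to all genes and 0.72 relative to the hepatocyte markers, so it has no fixed direction across scalings. Macrophages of the liver express it strongly. All 9 Kupffer and macrophage markers matched were higher in the knockout library, as were 84.5% of all tested genes. Of these 9, 4 were at least 2-fold higher, against 19.2% of all tested genes. Relative to all genes 1 was, against 5.67%. Their summed level was 331 and 814 FPKM, and their part in the Slc40a1 value was not tested. Hamp stood at 0.0119 of the Slc40a1 level in the wild-type (0.00480 to 0.0246) and at 3.66 times it in the knockout library (3.47 to 3.85). Since hepcidin acts on the ferroportin protein, transcript levels do not show how much exporter was present.

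**Figure D4:**
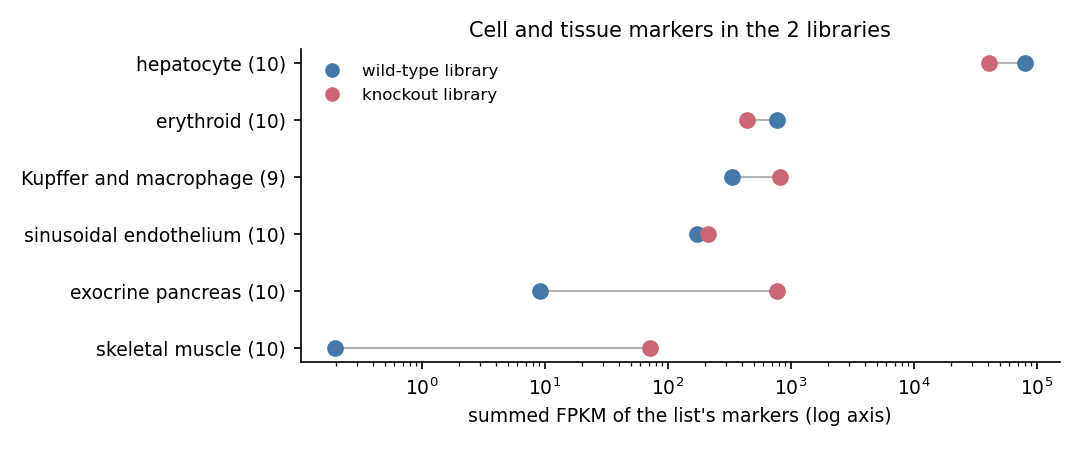
Summed FPKM (log axis) of each marker list in the wild-type (blue) and knockout (red) library, with the number of markers matched in parentheses. Pancreas and muscle markers show the widest gaps, at 9.20 and 780 FPKM and at 0.197 and 71.7 FPKM, and sinusoidal endothelium the narrowest.

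Targets of BMP signalling other than hepcidin differed by far smaller folds than Hamp, and none reached 2-fold relative to all genes. Of 8 listed, 6 passed the filter, 1 of them (Bambi, named after its values were seen) only through the knockout library, which fixed its direction. All 6 were higher there, as were 84.5% of all tested genes, and 3 were at least 2-fold higher as deposited, with a median log2 ratio of 0.85 (0.30 relative to all genes). Id1, an inhibitor of DNA-binding helix-loop-helix factors, went from 4.92 to 14.8 FPKM, or 3.01-fold higher (2.45 to 3.72). Id3 stood at 18.1 and 42.6 FPKM. Atoh8, a transcription factor induced by iron in hepatocytes, was 3.05-fold higher (2.64 to 3.53), at 3.51 and 10.7 FPKM. Id2, the most abundant, stood at 65.4 and 84.2 FPKM.

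The BMP and SMAD signalling genes lay near the rest of the transcriptome. Of 19, 17 passed the filter, with a median log2 ratio of 0.48 (-0.07 relative to all genes), 1 at least 2-fold higher and 0 lower (0 and 1 relative to all genes). The higher one was the ligand gene Bmp7, at 0.462 and 2.20 FPKM, which passed the filter only through the knockout library and so had to be higher there. Gdf2, which encodes BMP9, stood at 8.63 and 17.8 FPKM. Inhbb, the subunit of activin B, which can induce hepcidin in inflammation, stood at 12.7 and 6.17 FPKM. Fkbp1a, which holds type I receptors inactive, stood at 46.2 and 71.8 FPKM. Erfe, the erythroid hormone that lowers hepcidin, had 8 and 10 reads and did not pass the filter; it was named after its values were seen.

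In the inflammatory branch the signalling genes lay near the median of all genes and most targets lay below it. Of 13 signalling genes, 9 passed, with a median of 0.74 (0.18 relative to all genes). At least 2-fold lower were 0 of them (1 relative to all genes). At least 2-fold higher were 3 (0 relative to all genes), a size that 19.2% of all tested genes reached as deposited. These 3 were the receptor genes Osmr (1.08 and 3.79 FPKM) and Il6st (24.7 and 54.7 FPKM) and the kinase gene Jak2 (2.998 and 7.52 FPKM), while Stat3 stood at 42.4 and 39.4 FPKM. Among the ligands, named after their values were seen, Il6 had 0 and 3 reads, no more than the floor, and Lif had 2 and 65 reads, 32.9-fold higher (8.75 to 277), both under the filter.

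STAT3 targets of the acute phase, made mainly by hepatocytes, lay low. Of 13, 8 were at least 2-fold lower in the knockout library and 2 higher (9 and 0 relative to all genes), with a median of -1.88, or -2.43 relative to all genes. Of all tested genes, 2.95% were at least 2-fold lower and 19.2% higher (6.66% and 5.67% relative to their median). Hepatocyte markers were lower as well (median -0.79, 8 of 10 lower), and relative to them the list median was -1.09; their part in it was not tested. Saa1 (83.8 and 5.75 FPKM) and Saa2 (22.2 and 2.94 FPKM), serum amyloid A genes with similar sequences, were 14.6-fold lower (12.1 to 17.7) and 7.54-fold lower (5.62 to 10.3). Orm1, which encodes orosomucoid, stood at 22.1 and 3.97 FPKM, and the fibrinogen gene Fgb at 4868 and 1445 FPKM. The 2 higher ones, named after their values were seen, were Socs3, the feedback inhibitor of STAT3 signalling (1.90 and 5.02 FPKM), and Lcn2, a siderophore-binding protein gene (345 and 896 FPKM). Hamp, which passed the filter only through the knockout library, was higher, as were 4 of these 13 targets, while 9 were lower.

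Among 11 other regulators of the hepcidin promoter the median was 0.58 (0.02 relative to all genes), and 3 reached 2-fold in the higher, 0 in the lower direction (2 and 1 relative to all genes). Ddit3, whose product CHOP opposes C/EBP factors, stood at 2.05 and 38.7 FPKM. Atf4, a translation-controlled stress factor, was 3.30-fold higher (3.12 to 3.49), at 35.2 and 116 FPKM, and Trp53 stood at 15.8 and 33.2 FPKM. Creb3l3, a liver factor of endoplasmic reticulum stress that binds the hepcidin promoter, stood at 92.0 and 119 FPKM. Cebpa, an activator of hepcidin transcription and the 1 gene lower by 2-fold relative to all genes, stood at 83.9 and 42.7 FPKM, and Usf2, the neighbour of Hamp, at 19.3 and 19.8 FPKM; these last genes were chosen after their values were seen.

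**Figure D5:**
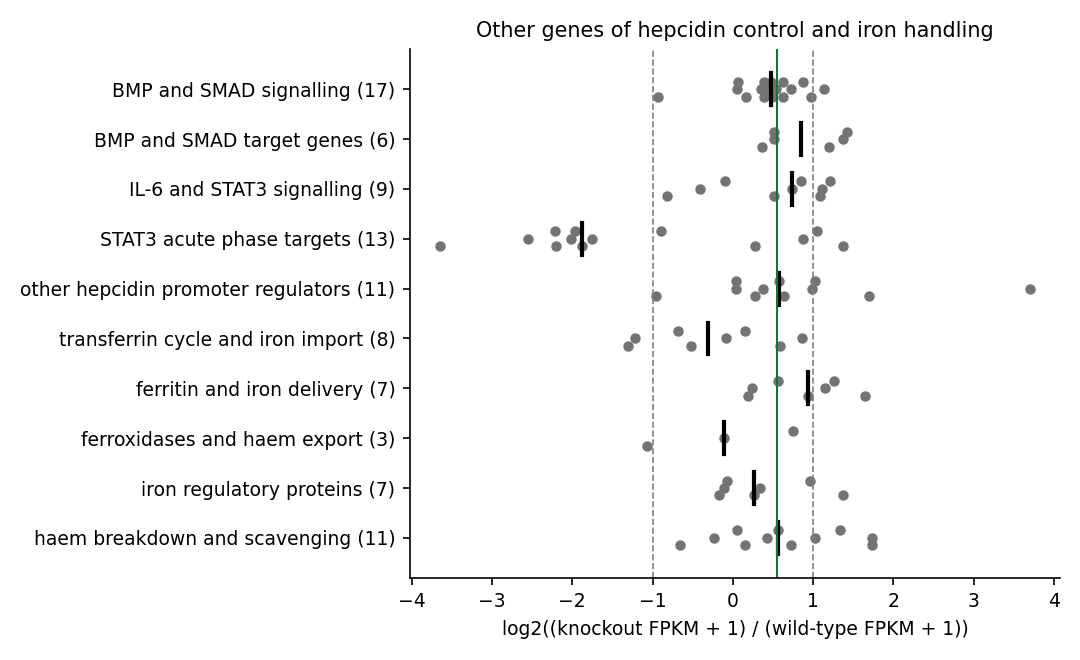
Log2 ratios of genes that passed the filter in the 10 lists of other iron and hepcidin genes (1 point per gene, number in parentheses, black bar at the list median). The green line is the median of 0.55 over all tested genes and the dashed lines mark 2-fold; the acute phase targets of STAT3 lie furthest left, with a median of -1.88.

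The median of the genes of plasma iron transport and import had no fixed direction across scalings. Of 8 transferrin cycle and import genes, 5 were lower in the knockout library, 2 of them at least 2-fold (4 relative to all genes), and 0 were at least 2-fold higher, with a median of -0.31, or -0.86 relative to all genes. Relative to the hepatocyte markers, whose median was -0.79, the list median was 0.48. Trf, which encodes transferrin, stood at 19368 and 7809 FPKM. Steap3, the endosomal ferrireductase, was 2.65-fold lower (2.33 to 3.02), at 10.4 and 3.94 FPKM, and the endolysosomal channel gene Mcoln1 stood at 10.7 and 20.3 FPKM. Of the 3 ferroxidase and haem export genes that passed, Cp, the plasma ferroxidase ceruloplasmin, was lower at 397 and 188 FPKM (2.11-fold, 2.07 to 2.14), while Flvcr1, which passed only through the knockout library, stood at 0.876 and 2.17 FPKM and Abcg2 at 10.3 and 9.40 FPKM.

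Ferritin genes stood somewhat above the median of all genes, and haem breakdown genes at it. All 7 ferritin and iron delivery genes that passed were higher in the knockout library, as were 84.5% of all tested genes, and 3 were at least 2-fold higher (1 relative to all genes), with a median of 0.94, or 0.39 relative to all genes. Besides Ftl1 these were Ncoa4, the receptor that carries ferritin to autophagy (10.9 and 36.3 FPKM, 3.33-fold higher, 3.12 to 3.56), and Glrx3, a cytosolic iron-sulfur glutaredoxin (25.4 and 62.0 FPKM). Of 11 haem breakdown and scavenging genes, 4 reached 2-fold in the higher and 0 in the lower direction (2 and 1 relative to all genes), with a median of 0.56, or 0.01 relative to all genes. Hmox1, the inducible haem oxygenase, was 3.39-fold higher (3.18 to 3.62), at 29.5 and 100.2 FPKM, and Blvrb, a biliverdin reductase gene, stood at 59.7 and 201 FPKM. The other 2 were Slc48a1, a lysosomal haem transporter gene (14.4 and 38.0 FPKM), and Bach1, a haem-responsive repressor gene named after its values were seen (2.84 and 6.82 FPKM). Hpx, the plasma haem scavenger hemopexin, stood at 4338 and 3675 FPKM.

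The list of iron regulatory proteins and genes around them had a median of 0.26, or -0.30 relative to all genes, over 7 genes. Its members Aco1 and Ireb2 encode the proteins that bind the stem-loops printed above; Aco1, named after its values were seen, stood at 24.2 and 22.9 FPKM and Ireb2 at 6.42 and 8.36 FPKM. Fbxl5, the iron-sensing ubiquitin ligase subunit that removes iron regulatory protein 2, was the 1 gene at least 2-fold higher (0 relative to all genes), at 4.30 and 12.7 FPKM, or 2.95-fold (2.60 to 3.35). Its partner Skp1 stood at 51.5 and 101.2 FPKM. Of the member genes with promoter windows in the reference table, 7 of 10, the BMP element was matched before Hamp and in 1 of 2 windows of Tfrc, and the STAT site before Hamp and Hamp2 alone.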

How the data were processed

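Per the file headers, the authors deposited 1 table per library, listing RefSeq accessions with their read count and FPKM. Per the submitters' processing notes, reads were aligned with Bowtie 0.12.2 to mm9. The sources used here do not give the counting program, annotation, strand use, read length or any pooling. Counts were used only for intervals and floors, and FPKM for levels and ratios.

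Accessions were named from RefSeq (GRCm38.p6) and GENCODE M21 tables, 23419 of 26449 matched, and summed per gene. The size of a difference was the log2 ratio of FPKM + 1 for genes with at least 1 FPKM in either library. Folds are plain FPKM ratios, with exact 95% intervals of the read ratio times 1.012, the relative worth of 1 read. A gene at 0 reads was set against 3 reads.

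The 10 genes, 10 pathway lists and 6 marker lists were chosen with earlier results of these data known. Named are the 10 genes, per pathway list the 3 largest absolute log2 ratios and the most abundant gene, and the 3 genes nearest to Hamp among those with a name. Markers named were taken from the genes at 0 reads and the 2 most abundant per list, not all of which are named. Other genes are marked in the text as chosen after their values were seen. List medians relative to the hepatocyte markers were added after seeing the data. Smad7, Slc25a37, Ftl2, Ahsp, Cd68 and Csf1r were not analysed here. The ratio and interval code was tested on simulated data. Scripts ran under Python 3.11.15 with scipy 1.17.1, numpy 2.4.6 and pandas 2.3.3, and figures were drawn with matplotlib 3.10.9.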

Additional observations from a re-analysis of the deposited data

How the results depend on the processing

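The count of 5 iron genes at least 2-fold higher became 2 with a pseudocount of 5, 3 with a filter of 5 FPKM, 3 after centring on all tested genes, 3 when rescaled without the 20 most abundant genes and 3 under a size rule of 4-fold. The count of 2 lower became 0 after centring on hepatocyte markers and 0 at 4-fold. The median log2 ratio of 0.86 became 0.65 with a pseudocount of 5, 0.30 with the 5 FPKM filter, which leaves 8 genes, 0.31 and 1.65 after centring on all genes and on hepatocyte markers, and 0.54 without the 20 most abundant genes. A pseudocount of 0.1, no filter, a common sum (TPM) and a gene's most abundant accession kept these counts within 1.5 times. Hamp was past 2-fold under all 9 settings that give it a value (log2 5.14 to 7.98), and Tfr2 and Tmprss6 under 8 of 9. Tfrc and Slc40a1 changed sign under 1 setting each, centring on hepatocyte markers. No paired analysis was possible because there is 1 library per genotype. Depth limits Hamp, Hamp2 and Bmp6, which rest on 7, 0 and 21 wild-type reads.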
